A study of Mus musculus with 16 samples.

Results

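Chromosome 6 of the mouse carries genes for caveolins, splicing factors, chromatin enzymes and tumour necrosis factor receptors, and 58 of them were followed across 8 mammary fibroblast lines. They were selected on their position and on the HpAF1-minus-normal difference: chromosome 6 as a whole was measured higher in the line HpAF1 than in the other lines. That difference chose the genes, so it is described here without a test, and the tests concern the other lines. Of the 58 genes, 51 had a probe under their name (88 probes), and 35 had a probe with a detection p under 0.01 on 2 or more of the 16 arrays (55 probes). These 35 were analysed among the 7454 genes that met the same detection rule, of which 383 lie on chromosome 6.

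RNA was measured on Illumina bead arrays in 8 fibroblast lines of the FVB/N background, with 2 cultures per line. NF2 and NF3 were isolated from normal mammary gland, the 4 lines CAF1 to CAF4 from carcinomas, AdAF1 from an adenoma and HpAF1 from a hyperplasia of the MMTV-PyMT model, in which the mouse mammary tumour virus promoter drives polyoma middle T antigen in the mammary gland. Every line, the normal ones included, carried human papillomavirus E6 as the immortalizing gene, received no treatment and grew for 72 h on a Matrigel and collagen I gel in DMEM with 10% serum. Hyperplasia and adenoma are thus represented by 1 line each, and what is measured in HpAF1 belongs to that line and not to a stage. Nothing in the labels says whether lines came from separate mice, and the labels number the 2 cultures of a line as repeats, so p-values between lines measure only the spread between cultures.

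Caveolins are the scaffold proteins of caveolae, the flask-shaped pits of the fibroblast membrane. The RNA-binding members splice, stabilise or deliver messenger RNA, the chromatin members silence or remodel nucleosomes, and the COPI subunits coat vesicles that return from the Golgi to the endoplasmic reticulum. Fibroblasts use most of these genes as part of the ordinary running of the cell.

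Promoters of 5 members are shown. Setd5 and Hnrnpa2b1 were the members furthest above the normal lines in HpAF1, and Mgll and Aqp1 the furthest below. Serbp1, the eighth highest, is shown as a higher member with a small error and a YY1 match. The sequences are those of RefSeq on GRCm38.p6, from 250 bases before to 50 bases after the annotated start, and capitals mark a match, on either strand, to the CCAAT box, to the GC box (GGGCGG) or to the YY1 motif (GCCATNTTG).
Setd5 (chr6:113104685-113104984, plus strand): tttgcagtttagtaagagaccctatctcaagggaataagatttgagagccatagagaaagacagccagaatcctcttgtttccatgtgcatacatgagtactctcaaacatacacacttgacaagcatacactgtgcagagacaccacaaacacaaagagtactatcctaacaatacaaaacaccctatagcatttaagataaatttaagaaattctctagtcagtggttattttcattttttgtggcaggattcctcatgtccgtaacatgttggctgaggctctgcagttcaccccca
Hnrnpa2b1 (chr6:51469845-51470144, minus strand): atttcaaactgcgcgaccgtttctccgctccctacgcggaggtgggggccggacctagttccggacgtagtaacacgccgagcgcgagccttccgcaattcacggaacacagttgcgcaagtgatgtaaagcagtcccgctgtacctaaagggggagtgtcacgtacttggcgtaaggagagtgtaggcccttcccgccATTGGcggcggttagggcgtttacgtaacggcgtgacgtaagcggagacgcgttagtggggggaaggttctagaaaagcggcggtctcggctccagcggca
Serbp1 (chr6:67266729-67267028, plus strand): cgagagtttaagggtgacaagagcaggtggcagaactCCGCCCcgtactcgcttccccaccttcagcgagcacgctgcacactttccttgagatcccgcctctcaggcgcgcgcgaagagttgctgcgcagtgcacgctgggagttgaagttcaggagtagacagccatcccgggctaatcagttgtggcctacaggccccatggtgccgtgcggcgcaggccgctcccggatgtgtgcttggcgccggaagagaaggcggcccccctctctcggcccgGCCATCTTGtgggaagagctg
Mgll (chr6:88724162-88724461, plus strand): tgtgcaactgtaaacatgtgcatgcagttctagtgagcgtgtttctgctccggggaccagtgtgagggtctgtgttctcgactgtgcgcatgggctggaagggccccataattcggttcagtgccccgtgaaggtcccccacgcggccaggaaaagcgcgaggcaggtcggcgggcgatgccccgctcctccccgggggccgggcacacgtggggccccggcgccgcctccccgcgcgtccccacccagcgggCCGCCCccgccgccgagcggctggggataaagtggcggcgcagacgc
Aqp1 (chr6:55336049-55336348, plus strand): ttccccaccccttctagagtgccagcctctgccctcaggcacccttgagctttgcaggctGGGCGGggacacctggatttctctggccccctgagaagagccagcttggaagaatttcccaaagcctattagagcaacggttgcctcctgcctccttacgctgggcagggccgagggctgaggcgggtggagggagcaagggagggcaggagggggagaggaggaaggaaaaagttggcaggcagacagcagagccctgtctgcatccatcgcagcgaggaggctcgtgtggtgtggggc
Of the 35 members 32 matched a promoter in that table. GGGCGG, the GC box, stood in 23 of the 32 (71.9%), against 35.9% of the 27025 promoters of the table. GCCATNTTG stood in 4 of 32 (12.5%), against 2.6% of all promoters. CCAAT was as frequent in the members (37.5%) as in all promoters (37.9%), TATAAA stood in 6.2% against 14.2%, and the NRF1 motif in 3.1% against 1.0%. The members' promoters held a median of 19 CpG pairs, against 7 over all promoters. All promoters of the table include those of genes not detected in these cells, so the shares describe the members and do not set them apart. GGGCGG is also in both Mgll and Aqp1, the members lowest in HpAF1, and none of the searched letters is in the Setd5 window. Only the first promoter listed for each gene was used, so any other start of Setd5 or of another gene is not covered.

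The arrays differed in depth and in how well cultures agreed. Between 7445 and 9823 probes per array had a detection p under 0.01. Log2 intensities of the 2 cultures of a line correlated across probes from 0.936 in NF3 to 0.994 in CAF1. NF2 was next lowest to NF3, at 0.953, and several members show the spread of these lines. In the NF2 cultures Aqp1 stood at 7.76 and 10.28 log2 intensity and Hipk2 at 5.28 and 7.16. Osbpl3 stood at 8.85 and 5.11 log2 intensity in the NF3 cultures, Mgll at 5.97 and 9.11, Aqp1 at 8.94 and 6.02, and Mgst1 at 10.33 and 12.65. The counts and medians of the members, the chromosome 6 excess and the partner median are therefore also given against NF2 alone. So are the calls in other lesion lines, but NF2 is itself a reference whose 2 cultures differ.

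The fibroblast identity of HpAF1 was checked against marker genes. All 7 fibroblast markers (Col1a1, Col1a2, Pdgfra, Pdgfrb, Thy1, Vim and S100a4) were detected on both HpAF1 arrays, but their summed intensity was 14313, below the 19916 to 32934 of the other lines. Col1a1, Col1a2, Vim and S100a4 were lowest in HpAF1, but the others were not. Pdgfra stood at 11.15 log2 intensity in HpAF1 and 10.62 in CAF4, and Pdgfrb at 7.36 in HpAF1 and 7.28 in CAF3. Thy1 stood at 12.63 in HpAF1, above CAF1 at 12.29 and CAF3 at 12.15. None of the 5 mammary epithelial markers and none of the 3 leukocyte markers with a probe was detected on any array, and of 4 endothelial markers only Tek was. Of 6 mesothelial markers, 3 were detected in HpAF1, with a summed intensity of 1097 against 245 to 367 in the other lines. Upk3b, a uroplakin of mesothelium, was detected on the 2 HpAF1 arrays alone (line mean 9.25 against 4.76 to 5.06 log2 intensity in the other lines), and Wt1 was highest there at 7.94. Upk1b was detected on all 16 arrays and stood at 7.32 in HpAF1, below NF3 at 7.59. Krt19 was lowest in HpAF1 at 4.57, undetected there, and Msln and Lrrn4 were detected nowhere. The part of the fibroblast and mesothelial markers in the chromosome 6 values was not tested. A difference between lines in RNA of a mixed culture could be fewer cells of a type or less RNA per cell, which these arrays cannot tell apart.

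Most members were higher in HpAF1 than in the normal lines. The median of the 35 differences was 0.69 on the log2 scale, 1.61-fold, and 26 of 35 were above 0. In 20 members (57.1%) both HpAF1 arrays lay above all 4 normal arrays, against 19.8% of all genes tested, and in 17 members (48.6%) they lay above all 14 other arrays, against 9.74% of all genes. Aqp1 alone had both HpAF1 arrays below the 4 normal arrays and below the other 14 arrays, against 20.2% and 9.57% of all genes. Since the genes were chosen for this contrast, nothing is read from these shares. Against NF2 alone the median was 0.70, and 24 members lay above both NF2 arrays. That asks less than lying above the 4 normal arrays, and its share of all genes was not counted, so nothing is read from it. Without the detection filter, when 51 members enter, the median was 0.26.

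**Figure D1:**
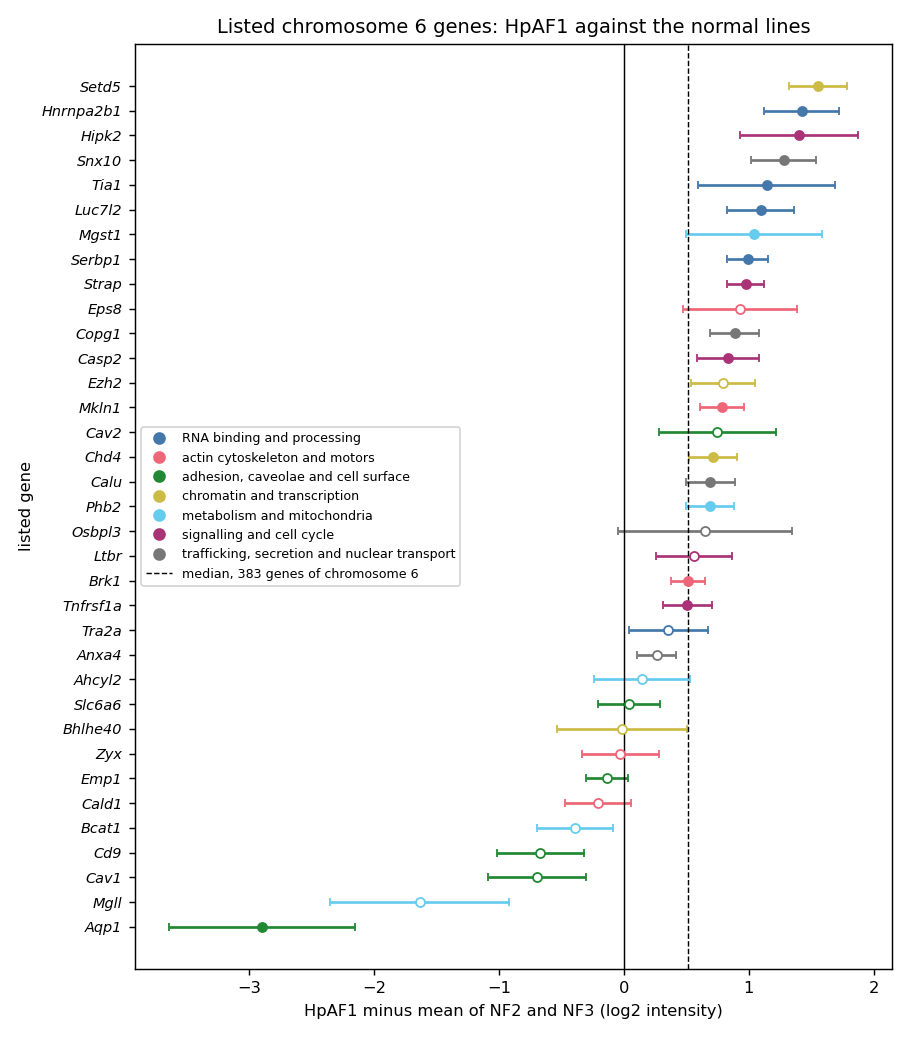
Difference of HpAF1 (2 arrays) from the mean of NF2 and NF3 (4 arrays) for the 35 listed genes, on a log2 scale, as points with bars of 1 standard error of the line model, coloured by role. Filled points mark the 18 genes whose HpAF1 arrays both lay outside the range of the other 14 arrays, and the dashed line is the median of all 383 tested genes of chromosome 6 (0.51).

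RNA-binding and RNA-processing members were all higher. In 5 of 5 the HpAF1 arrays lay above the 4 normal arrays (19.8% of all genes), with a median difference of 1.09. The counts by role that follow stand beside that same share, and nothing is read from them. Hnrnpa2b1, a nuclear ribonucleoprotein that binds and sorts RNA, gave 12.31 and 12.46 log2 intensity in HpAF1, against 11.18 and 10.59 in NF2 and 11.39 and 10.70 in NF3. The 10 arrays of the other lesion lines ran from 10.45 to 11.87, median 11.08. HpAF1 lay above all of them, and the difference from the normal lines was 1.42 (SE 0.30). Serbp1, which binds mRNA and ribosomes, gave 13.83 and 13.92 in HpAF1, 12.85 and 13.00 in NF2 and 12.78 and 12.91 in NF3, and 12.53 to 13.24, median 13.04 in the other lesion lines. Its difference of 0.99 (SE 0.16) had one of the smaller errors, and no other array came within 0.5 of HpAF1. Luc7l2, a protein of the U1 spliceosome particle, gave 10.00 and 9.92 in HpAF1, 9.00 and 8.74 in NF2 and 9.23 and 8.48 in NF3, and 8.20 to 9.15, median 8.91 in the other lesion lines, a difference of 1.09 (SE 0.27). Its HpAF1 arrays again stood clear of the rest.

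Tia1, a stress granule protein that regulates splicing and translation, varied more. It gave 8.65 and 8.51 in HpAF1, 7.39 and 6.63 in NF2 and 7.81 and 7.93 in NF3, and 5.90 to 8.42, median 6.48 in the other lesion lines. HpAF1 was the highest line, but culture 1 of CAF2 came within 0.1 log2 units of it, and the difference of 1.14 (SE 0.55) had a large error. Tra2a, a splicing regulator, differed by 0.36 (SE 0.32), and its HpAF1 arrays lay above the normal arrays but not above the other lesion lines.

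Chromatin and transcription genes gave a median of 0.76, with HpAF1 above the normal arrays in 3 of 4. Setd5, a SET domain protein linked to histone modification, had the largest difference among the members that were higher in HpAF1, 1.55 (SE 0.23), but without background correction it was 1.08, below Hnrnpa2b1 (1.37) and Snx10 (1.14). Its levels were 8.87 and 8.58 in HpAF1, 7.08 and 7.21 in NF2 and 6.98 and 7.41 in NF3, and 6.77 to 7.71, median 7.50 in the other lesion lines. The lowest HpAF1 array was thus 8.58 and the highest other array 7.71. Chd4, the ATPase of the NuRD chromatin remodelling complex, gave 9.74 and 10.01 in HpAF1, 9.05 and 9.09 in NF2 and 9.21 and 9.28 in NF3, and 8.97 to 9.52, median 9.24 in the other lesion lines, a difference of 0.72 (SE 0.19). Its 3 tested probes did not agree, with differences of 0.72, 1.06 and -0.27. The last of these was detected on 3 arrays, none of them HpAF1. Ezh2, the histone methyltransferase of polycomb repressive complex 2, differed by 0.79 (SE 0.26), with HpAF1 above the normal arrays but level with culture 1 of CAF3. Bhlhe40, a helix-loop-helix repressor, did not follow, at -0.02 (SE 0.52).

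Signalling and cell cycle genes had a median difference of 0.83, with HpAF1 above the normal arrays in 4 of 5. Strap, a WD-repeat protein that binds TGF-beta receptors, gave 12.65 and 12.70 in HpAF1, 11.73 and 11.83 in NF2 and 11.66 and 11.56 in NF3, and 11.49 to 11.82, median 11.78 in the other lesion lines. The other 14 arrays spanned less than the gap that separated them from HpAF1, and the difference was 0.97 (SE 0.14). Casp2, a caspase, gave 10.40 and 10.08 in HpAF1, 9.75 and 8.85 in NF2 and 9.57 and 9.46 in NF3, and 8.86 to 9.52, median 9.24 in the other lesion lines, a difference of 0.83 (SE 0.25). Hipk2, a nuclear kinase of stress responses, gave 7.18 and 7.73 in HpAF1, 5.28 and 7.16 in NF2 and 5.88 and 5.89 in NF3, and 5.31 to 6.67, median 6.15 in the other lesion lines. HpAF1 was highest, but culture 2 of NF2 was within 0.1 of its lower culture, and Hipk2 was detected on 8 arrays only. Its difference of 1.40 (SE 0.47) was 0.69 when background was not corrected. Ltbr and Tnfrsf1a, receptors of the tumour necrosis factor family that lie next to each other among the tested genes, differed by 0.56 (SE 0.30) and 0.51 (SE 0.20).

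Among genes of trafficking and secretion the median was 0.69, and HpAF1 lay above the normal arrays in 3 of 5. Snx10, an endosomal sorting nexin, gave 10.43 and 10.62 in HpAF1, 9.55 and 8.93 in NF2 and 8.85 and 9.65 in NF3, and 8.55 to 9.66, median 9.27 in the other lesion lines. Its difference was 1.28 (SE 0.26), and no other array reached the HpAF1 level. Copg1, the gamma subunit of the COPI coat, gave 10.55 and 10.59 in HpAF1, 9.34 and 9.94 in NF2 and 9.66 and 9.80 in NF3, and 9.05 to 10.03, median 9.52 in the other lesion lines, a difference of 0.89 (SE 0.19). Of its 4 tested probes, the 2 brighter gave 0.89 and 0.92 and the 2 dimmer -0.02 and -0.03, so the value depends on the probe taken, and the mean of all probes gave 0.44. Calu, a calcium-binding protein of the secretory pathway, differed by 0.69 (SE 0.19), and its other 3 probes gave 0.86, 1.07 and 1.24. Osbpl3, a lipid-binding protein, gave 7.58 and 7.70 in HpAF1, 6.91 and 7.11 in NF2 and 8.85 and 5.11 in NF3, and 6.86 to 8.42, median 7.85 in the other lesion lines. The NF3 cultures enclosed all other arrays, and its difference of 0.65 (SE 0.70) was smaller than its error. Anxa4, a calcium-dependent membrane-binding annexin, differed by 0.26 (SE 0.16).

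The actin group was divided, with a median of 0.51 and HpAF1 above the normal arrays in 3 of 5. Eps8, which caps and bundles actin, gave 8.93 and 9.32 in HpAF1, 8.06 and 8.74 in NF2 and 7.39 and 8.60 in NF3, and 7.13 to 9.48, median 8.01 in the other lesion lines. Its difference was 0.93 (SE 0.46), and culture 2 of CAF3 was higher than HpAF1. Mkln1 (muskelin, of an E3 ligase complex) differed by 0.79 (SE 0.17) and Brk1, the small subunit of the WAVE complex, by 0.51 (SE 0.14), both with HpAF1 above all other arrays. Zyx, a focal adhesion protein that responds to tension, did not follow, at -0.03 (SE 0.31). Cald1, caldesmon, gave 5.78 and 5.45 in HpAF1, 6.07 and 6.11 in NF2 and 5.68 and 5.43 in NF3, and 5.32 to 6.70, median 6.19 in the other lesion lines. It was detected on 7 arrays and on neither HpAF1 array, and its difference of -0.20 (SE 0.26) is a difference between values near background.

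Metabolic genes gave a median of 0.15, with HpAF1 above the normal arrays in 2 of 5. Mgst1, a glutathione transferase of microsomal membranes, gave 12.79 and 12.68 in HpAF1, 11.77 and 12.03 in NF2 and 10.33 and 12.65 in NF3. HpAF1 exceeded every other array, by little over culture 2 of NF3, and the difference was 1.04 (SE 0.54). Phb2, a prohibitin of the inner mitochondrial membrane, differed by 0.69 (SE 0.19) and lay above all other arrays. Ahcyl2, a relative of adenosylhomocysteinase, differed by 0.15 (SE 0.38) and was detected on neither HpAF1 array. Bcat1, the cytosolic aminotransferase of branched-chain amino acids, gave 11.22 and 11.31 in HpAF1, 11.63 and 12.07 in NF2 and 11.61 and 11.31 in NF3, and 11.08 to 12.39, median 11.49 in the other lesion lines. Its difference was -0.39 (SE 0.30), with culture 2 of NF3 at the upper HpAF1 value and CAF2 culture 1 below both HpAF1 arrays. Mgll, the lipase that cleaves monoacylglycerol, was not detected on either HpAF1 array (6.32 and 5.68) and gave 7.03 and 8.44 in NF2 and 5.97 and 9.11 in NF3, and 5.77 to 8.97, median 7.17 in the other lesion lines. HpAF1 was at least 2.18-fold lower than the normal mean, but culture 1 of NF3, culture 2 of CAF2 and both CAF1 cultures were as low. The fitted difference was -1.63 (SE 0.71), and the other tested probes of Mgll gave -1.13 (SE 0.67) and -1.35 (SE 0.71).

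Surface and caveolar genes had the lowest median difference of the role groups, -0.40, with single genes on both sides of 0. In 0 of 6 did both HpAF1 arrays lie above the normal arrays, against 19.8% of all genes, and nothing is read from so few genes. Aqp1, a water channel, gave 5.53 and 5.18 in HpAF1, where it was not detected, against 7.76 and 10.28 in NF2 and 8.94 and 6.02 in NF3 and 6.97 to 10.23, median 8.33 in the other lesion lines. HpAF1 was the lowest of all lines and at least 3.34-fold below the normal mean, although the normal arrays themselves spanned over 4 log2 units. The fitted difference was -2.89 (SE 0.74), and -1.68 when background was not corrected. Its other tested probes gave smaller differences, -1.93 (SE 0.71) and -1.83 (SE 0.46). Cav1, the main caveolin of fibroblasts, gave 10.80 and 10.55 in HpAF1, 11.60 and 11.71 in NF2 and 11.95 and 10.22 in NF3, and 10.36 to 11.98, median 10.93 in the other lesion lines. Its difference of -0.69 (SE 0.39) lay among values that AdAF1 and CAF1 also showed. Cav2, its partner and neighbour on the chromosome, went the other way at 0.75 (SE 0.47), with culture 1 of NF3 above both HpAF1 arrays. Cd9, a tetraspanin, gave 12.06 and 12.34 in HpAF1, 12.75 and 13.17 in NF2 and 13.55 and 11.99 in NF3, and 12.15 to 13.44, median 12.58 in the other lesion lines, a difference of -0.67 (SE 0.35) within the range of the normal arrays. Emp1, a small membrane glycoprotein, differed by -0.13 (SE 0.17). Slc6a6, the taurine transporter, differed by 0.04 (SE 0.25), and by -0.16 with median scaling, the only member whose sign changed between the 4 scalings.

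**Figure D2:**
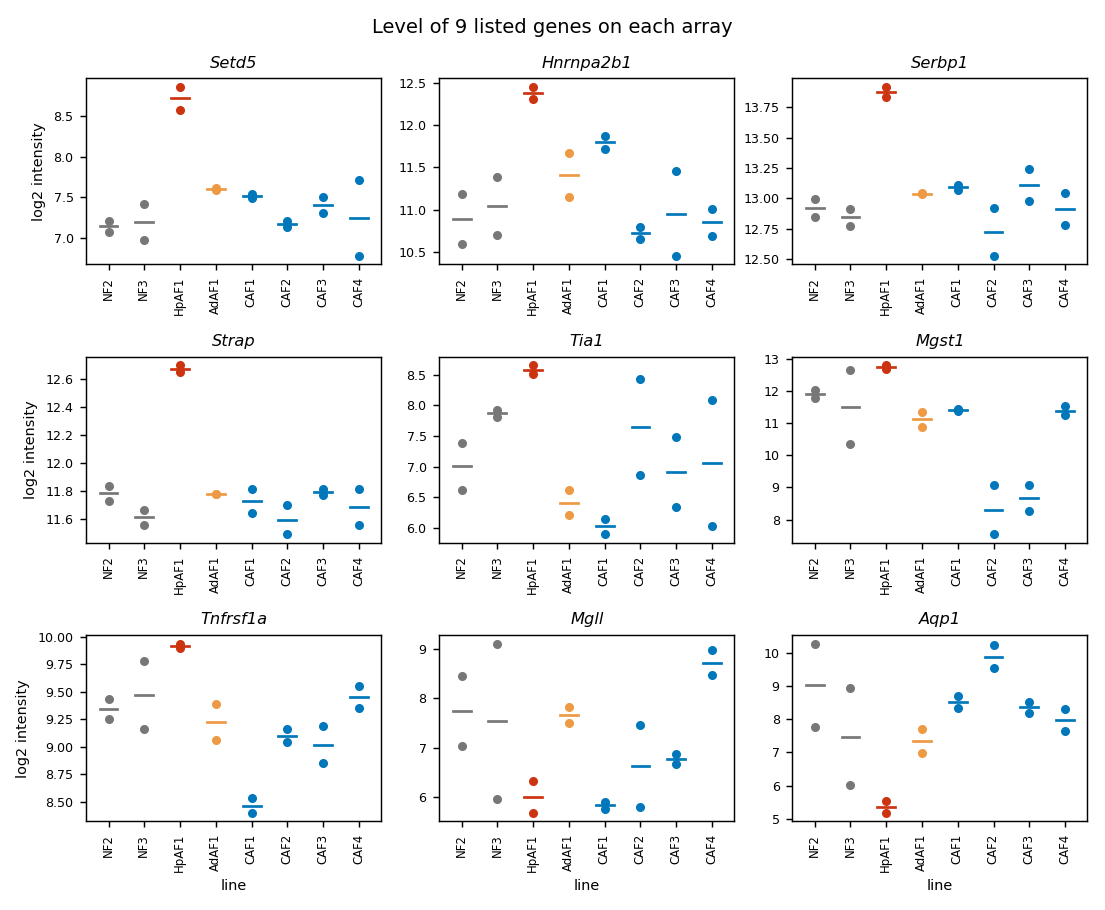
Log2 intensity of 9 listed genes in the 8 lines, with each culture as a point and the line mean as a bar; the vertical axes differ between panels. HpAF1 is the highest line in 7 panels, while Aqp1 is lowest there and Mgst1 is lowest in CAF2 and CAF3.

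The other 23 listed genes gave no level. Tes, Braf, Flnc, Copg2, Nup205, Itpr1 and Arl8b had no probe under their name. Another 16 had probes below the detection rule: Capza2, Cbx3, Cdkn1b, Cycs, Dctn1, Gng12, Lrp6, Mest, Met, Mkrn1, Peg10, Podxl, Rpn1, Sgce, Tnpo3 and Vhl. Cdkn1b, Cycs and Vhl came closest, each detected on 1 array with a lowest detection p of 0.0088, 0.0075 and 0.0038. The tested members detected on the fewest arrays were Cald1 on 7 and Hipk2 on 8. The 2 genes listed as imprinted, Mest and Peg10, were not detected on any array, nor was Sgce, and no statement on them is made.

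The listed genes did not stand alone on the chromosome. The 348 other tested genes of chromosome 6 had a median difference of 0.50 between HpAF1 and the normal lines, and in 50.9% of them the HpAF1 arrays lay above the 4 normal arrays. Genes of other chromosomes (7067) had a median of -0.03, with 18.1% above. Over all 383 genes of chromosome 6 the median was 0.51, 1.43-fold, with 78.3% above 0. Each array gave the same picture: the chromosome 6 median lay 0.489 and 0.545 above that of other chromosomes in the HpAF1 cultures and between -0.0974 and 0.0769 on the other 14 arrays. For the 35 members the same measure was 0.603 and 0.701, against -0.0934 to 0.141. Against NF2 alone the chromosome 6 excess of 0.55 over other chromosomes was 0.53. Without the detection filter the excess over other chromosomes was 0.0706.

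**Figure D3:**
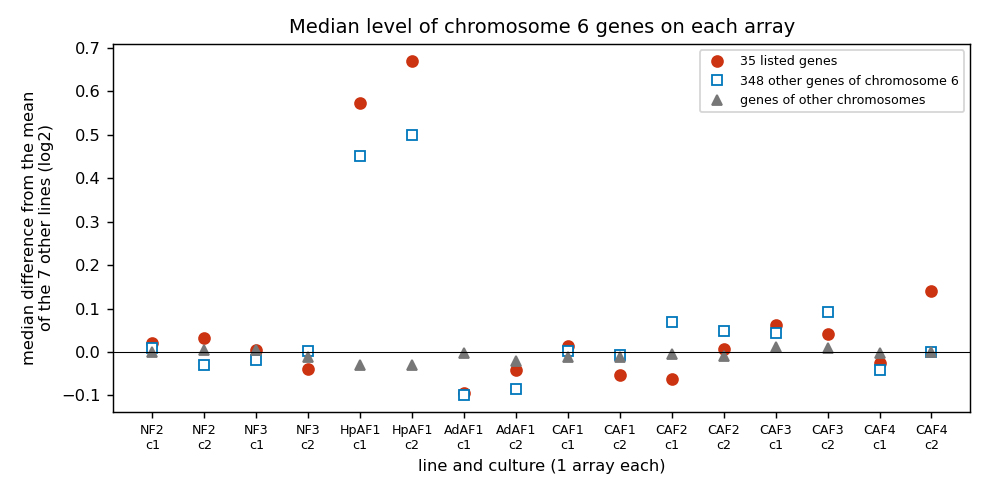
Median difference of each array from the mean of the 7 lines other than HpAF1, in log2 units, for the 35 listed genes, the 348 other tested genes of chromosome 6 and the genes of other chromosomes. The HpAF1 cultures stand above the other 14 arrays for both sets of chromosome 6 genes, and the triangles of other chromosomes stay near 0.

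The difference ran along the whole chromosome. When the 383 genes were taken in order in 10 blocks of 38 or 39, every block had a median above 0, from 0.24 to 0.72. The lowest block lay between Pradc1 and Chchd4 and held Tia1, Anxa4, Copg1 and Mgll. The highest, between Zyx and Fkbp14, held Zyx, Ezh2, Tra2a, Osbpl3, Hnrnpa2b1 and Snx10. Between 28.9% and 47.4% of a block's genes had HpAF1 above all 14 other arrays. Members that were direct neighbours among the tested genes were sometimes alike and sometimes not. Eps8, Strap and Mgst1 followed each other at 0.93, 0.97 and 1.04, and Luc7l2 and Hipk2 at 1.09 and 1.40. Cav2 and Cav1 stood side by side at 0.75 and -0.69, and Tnfrsf1a and Cd9 at 0.51 and -0.67.

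**Figure D4:**
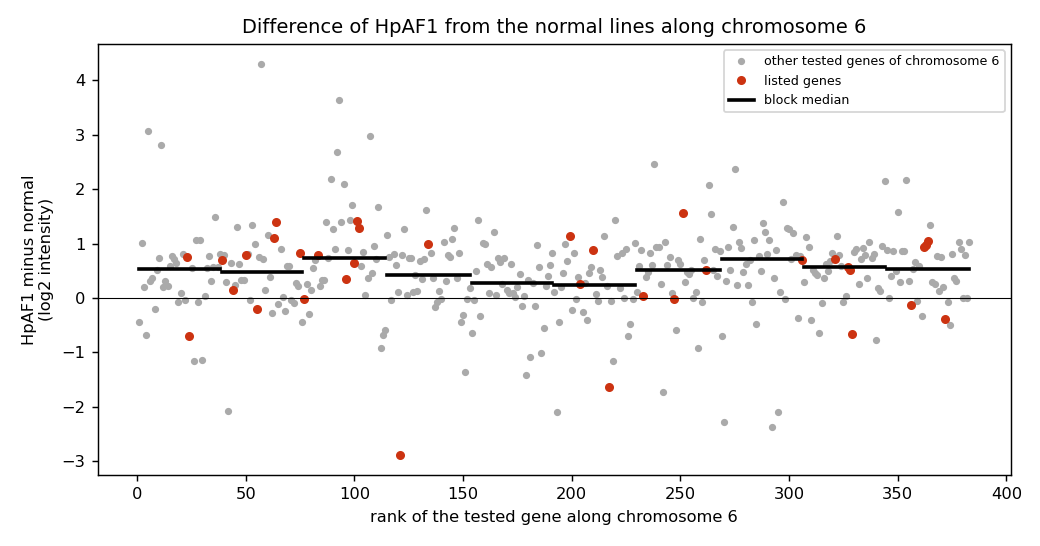
Difference of HpAF1 from the normal lines (log2) for the 383 tested genes of chromosome 6 in their order on the chromosome; red points are the 35 listed genes and black bars the medians of 10 blocks. All 10 block medians lie above 0, while single genes scatter on both sides.

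Dim genes of the chromosome showed a smaller difference. With all genes divided by mean level into 3 equal classes, the chromosome 6 medians were 0.30 in the lower, 0.56 in the middle and 0.59 in the upper class, and those of other chromosomes -0.03, -0.02 and -0.05. Of the members, 5, 8 and 22 fell into these classes. Of the unlisted genes of the chromosome, the 5 highest and the 5 lowest follow. Fam180a was detected on both HpAF1 arrays and on no normal array, and was at least 9.42-fold higher in HpAF1. Tmem176a differed by 3.64 (SE 0.42), Ppp1r9a was at least 2.76-fold, the homeobox gene Hoxa9 at least 3.43-fold and the neuropeptide precursor gene Tac1 at least 2.09-fold higher. At the other end were Pparg, the adipocyte transcription factor, at -2.29 (SE 0.35) and Mfap5, a microfibril protein, at -2.10 (SE 0.18). Slc6a12 was at least 2.62-fold, Irf5 at least 1.53-fold and Nat8 at least 1.28-fold lower.

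Chromosome 6 had the highest median of any chromosome in HpAF1, the others running from -0.31 to 0.36. Chromosome 18 was next, with 172 genes at a median of 0.36, of which 79.7% were above 0 (78.3% for chromosome 6). In 33.7% of them HpAF1 lay above all 14 other arrays (38.6% for chromosome 6). Against the normal lines the chromosome 6 median was -0.11 for AdAF1 and 0.02, 0.05, 0.06 and -0.02 for the carcinoma lines in order of their number, and it was -0.01 between NF3 and NF2. Each lay within the range of the other chromosomes in that comparison. All these comparisons use the 4 normal arrays of the comparison that chose the genes.

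**Figure D5:**
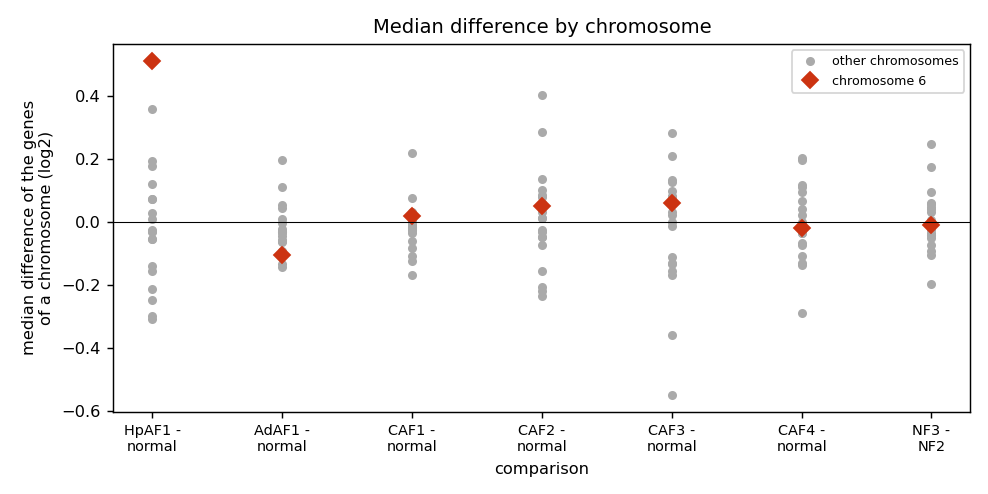
Median log2 difference of the tested genes of each chromosome in 7 comparisons between lines, chromosome 6 as a diamond and the other chromosomes as points. Chromosome 6 is highest in HpAF1 (0.51) and lies within the other chromosomes elsewhere.

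In the other lesion lines the members showed no common direction. The median of the 35 differences from the normal lines was -0.03 in AdAF1, 0.04 in CAF1 and 0.03 in each other carcinoma line, and -0.05 between NF3 and NF2. In AdAF1 0 of 35 members passed limma's moderated test at an adjusted p of 0.05 (4.02% of all genes passed), with 1 at an unadjusted p under 0.05. Cav1 came closest there (10.36 and 10.42), with a difference of -0.98 (SE 0.39, limma adjusted p = 0.206). CAF1 had 1 member of 35 that passed (7.18% of all genes did), with 6 at an unadjusted p under 0.05. CAF2 also had 1 (6.02% of all genes), as did CAF3 (4.52% of all genes), each with 3 at an unadjusted p under 0.05. CAF4 had 0 (1.48% of all genes), with 1 at an unadjusted p under 0.05. Between the normal lines 0 of 35 passed (0.148% of all genes), none at an unadjusted p under 0.05. Slc6a6 came closest there, with NF3 minus NF2 of 0.52 (SE 0.29, limma adjusted p = 0.719). The share of all genes at an unadjusted p was not counted in these comparisons, so nothing is read from the unadjusted counts.

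Mgst1 fell in 2 of the 4 carcinoma lines. It stood at 9.07 and 7.54 in CAF2 and at 8.26 and 9.09 in CAF3, against 11.77 and 12.03 in NF2 and 10.33 and 12.65 in NF3. CAF1 (11.38 and 11.42), CAF4 (11.25 and 11.52) and AdAF1 (11.34 and 10.88) lay between the highest and lowest normal arrays. The difference from the normal lines was -3.39 (SE 0.54, limma adjusted p = 0.00387) in CAF2 and -3.02 (SE 0.54, limma adjusted p = 0.00974) in CAF3, and no array of these lines reached the lowest normal array. The CAF3 call was lost when either CAF3 culture was left out.

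Tnfrsf1a, the main receptor of tumour necrosis factor, fell in CAF1. Its arrays there read 8.53 and 8.40, against 9.44 and 9.25 in NF2 and 9.16 and 9.78 in NF3, 9.89 and 9.94 in HpAF1, and 8.40 to 9.55, median 9.11 over the 10 other lesion arrays with CAF1 among them. CAF1 was below every other line, and the difference was -0.94 (SE 0.20, limma adjusted p = 0.0147). With either CAF1 culture left out the call was lost. In CAF4 Anxa4 came closest, at 10.17 and 10.29 against 9.71 and 9.36 in NF2 and 9.64 and 9.77 in NF3 and 10.03 and 9.74 in HpAF1, a difference of 0.61 (SE 0.16, limma adjusted p = 0.0958).

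A single test asked whether a member differed anywhere among the 7 lines other than HpAF1 (14 arrays), data in which HpAF1 has no part. Of 35 members 1 passed, against 11.3% of all genes, and 4 had an unadjusted p under 0.05. For the unadjusted p no share of all genes was counted, so nothing is read from the 4. Mgst1 passed (limma adjusted p = 0.0153), with line means from 8.30 in CAF2 to 11.90 in NF2. The next were Slc6a6 (adjusted p = 0.081), Anxa4 (0.110), Tnfrsf1a (0.112) and Mgll (0.264) in the same limma fit. Slc6a6 ranged from 12.94 in CAF1 to 14.24 in CAF2, with 12.96 and 13.81 in NF2 and 13.92 and 13.88 in NF3 and 13.58 and 13.79 in HpAF1. The median range of the line means over these 7 lines was 0.75 for the members and 0.79 for all genes.

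How many members passed depended on the NF3 cultures. Without culture 1 of NF3, Osbpl3, Aqp1 and Mgll joined Mgst1 in CAF2 (4 of 35 members, against 9.94% of all genes), and Osbpl3, Bhlhe40, Mgll and Ltbr joined Tnfrsf1a in CAF1 (5 of 35, against 11.5%). The test among 7 lines then called 6 of 35, against 17.5% of all genes. Osbpl3 also passed in AdAF1 (6.92% of all genes), CAF3 (8.30%) and CAF4 (2.50%). Without culture 2, Cav1, Cd9 and Tnfrsf1a passed in CAF1 (3 of 35, against 7.90% of all genes), Cav1 and Cd9 in AdAF1 (2 of 35, against 5.74%), and 4 of 35 among the 7 lines (15.4%). Osbpl3 passed between NF3 and NF2 when either NF3 culture was left out (1.52% of all genes without culture 1 and 0.470% without culture 2). Leaving out culture 1 of NF2 gave 2 members in CAF1 (8.26% of all genes), and leaving out either NF2 culture gave 2 among the 7 lines (12.0% of all genes each time). With both NF3 cultures left out, as chosen after the data were seen, Tnfrsf1a in CAF1 and Mgst1 in CAF2 and CAF3 passed against NF2 alone, Osbpl3 passed in CAF2 and CAF3 and Cav1 in AdAF1. Of all genes, 3.56% were then called in AdAF1, and 5.08%, 6.56%, 4.70% and 1.89% in the carcinoma lines in order of their number. In the same setting 4 members (Cav1, Osbpl3, Mgll and Mgst1) passed among the 6 lines, with 16.2% of all genes.

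With lines as replicates, carcinoma (4 lines) was compared with normal (2 lines). In that limma fit 0 of 35 members passed and 0 had an unadjusted p under 0.05, and over all genes 0% passed and 2.63% had an unadjusted p under 0.05. The median of the members was 0.00. Osbpl3 came closest at 0.75 (SE 0.32, limma adjusted p = 1).

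Partners of the listed proteins encoded on other chromosomes were, as a group, not higher in HpAF1. Of 55 tested partners 22 were above 0, with a median of -0.13. The HpAF1 arrays lay above the 4 normal arrays in 6 of them and below in 18, against 19.8% and 20.2% of all genes. The 6 tested members belong to caveolae, the COPI coat, polycomb repressive complex 2, the WAVE complex and NuRD. Their median was 0.73, and 4 lay above the normal arrays. Many of the 55 partners belong to complexes without a tested member, such as those of Lrp6 and Dctn1, so the medians cover unlike sets of complexes. Members were chosen on this contrast, and the partner list was drawn up with earlier results of these data known. In the COPI coat Copg1 was at 0.89, or 0.44 as the mean of its 4 probes, of which 2 were near 0, and its 5 partners ran from -1.41 (Copz2, SE 0.25) to -0.15 (Copb2). Polycomb repressive complex 2 had Ezh2 at 0.79, Suz12 at -0.11 and Rbbp7, a histone-binding subunit, at 0.75 (SE 0.28). The 6 partners listed for Chd4 in NuRD, which do not include Rbbp7, ran from -0.23 to 0.19. The upper end was Gatad2b, detected on no HpAF1 or normal array, and Mta1 was not detected in HpAF1 either. The 5 WAVE partners of Brk1 ran from -0.72 (Wasf2, SE 0.29) to 0.35. Among caveolar coat proteins Cavin2 was at 2.43 (SE 0.40), and Cavin3 at -2.003 (SE 0.15), Ehd2 at -1.31 (SE 0.22) and Cavin1 at -0.92 (SE 0.27) were lower. Cav1 itself, at -0.69 (SE 0.39), lay within the range of the normal arrays. Fzd2, a Wnt receptor and partner of the undetected Lrp6, was at -0.998 (SE 0.22). Against NF2 alone the partner median was -0.0572.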

How the data were processed

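RNA of 16 cultures (8 lines, 2 cultures each) had been labelled as biotin cRNA with the Ambion MessageAmp kit and hybridised to Illumina arrays, per the labels' protocols. The authors deposited a table of probe intensity, not normalized per the file headers, with a detection p-value for each probe and array, and a table of normalized intensity that served as an alternative. Scanner software and the genome build of the array are not stated in the labels, so no gene coordinates are given other than those of RefSeq promoters.

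The deposited intensities were put through neqc, which corrects background, applies quantile normalization and takes log2 (limma 3.58.1, R 4.3.3, offset 16, negative controls inferred from the detection p-values). Probes with a detection p under 0.01 on at least 2 arrays were tested (10453 of 25697), and a gene stands for its tested probe of highest mean. Of 25697 probes, 23978 had 1 symbol and 1719 none, and 23962 were matched by Entrez number to genes of GRCm38.p6. Dim probes are compressed toward background. Where no array of a line detected a gene, the fold is a lower bound ("at least"), the higher group's mean over, per array, the higher of the lowest signal among detected probes and the gene's own signal. Precision is limited by the 16 arrays.

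Differences came from a limma model with 1 mean per line (residual degrees of freedom 8, prior 3.69), with two-sided p-values adjusted by Benjamini-Hochberg over all tested probes and a threshold of 0.05. The F-test used the 7 lines other than HpAF1. Carcinoma against normal used line means. Every member is named, and values by array are given for the 12 members highest and the 6 lowest in HpAF1, the 5 of smallest p in the F-test, the member of smallest p in each other comparison of lines, and members whose probes disagree in sign. Of unlisted genes the 5 highest and 5 lowest are named, and of partners those 8 of largest difference, besides subunits named after their values were seen. The members, partner and marker lists were chosen with earlier results of these data known. The fits were tested on simulated data. Alternatives covered scaling, background, the detection filter, the probe, the reference line, each culture left out and culture number as a block.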

Additional observations from a re-analysis of the deposited data

How the results depend on the processing

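The median of the 35 members in HpAF1 minus normal, 0.69 with the settings reported, was 0.50 with the authors' normalized values and also without background correction, 0.58 with median scaling, 0.54 with the mean of all tested probes and 0.26 without the detection filter, which adds 16 members not detected on 2 arrays. It ran from 0.56 to 0.71 with a culture left out. The chromosome 6 median minus that of other chromosomes (0.55) was 0.37 with the authors' values and without background correction, 0.0706 without the filter and 0.59 with detection on at least 8 arrays. The partner median (-0.13) was -0.22 with median scaling and -0.0572 against NF2. Of 909 single member differences under 26 alternatives, 890 moved by less than the spread between cultures, 19 moved by more and 0 that the fit had called changed sign.

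Members called in CAF3 numbered 2 and in CAF4 1 with the authors' values and without background correction. In CAF2 there were 2 with the mean of probes. The test among the 7 lines called 2 under each of those 3 settings and under median scaling. Against NF2 with both NF3 cultures left out, a setting added after seeing the data, members called numbered 1 for AdAF1, 1 for CAF1, 2 each for CAF2 and CAF3 and 0 for CAF4, and 4 among the 6 lines, beside 3.56%, 5.08%, 6.56%, 4.70%, 1.89% and 16.2% of all genes. With 1 culture left out, its line rests on a lone array assumed to vary like the others, and counts ran from 0 to 2 in both AdAF1 and CAF3, 0 to 5 in CAF1, 1 to 4 in CAF2, 0 to 1 in CAF4 and in NF3 against NF2 and 1 to 6 among the 7 lines. Carcinoma against normal called 0 members with each line left out, with the line as a random block and with that block and the culture number. The cause of these shifts was not tested.

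The culture numbers did not meet the rule for pairing, a correlation over 0.1 in every pair of lines, and the labels do not say whether cultures of 1 number shared a chip or day. Deviations of same-numbered cultures correlated over 0.1 in 12 of 28 pairs of lines (-0.20 to 0.65, median 0.08). The replicate block left the members called at 0 in AdAF1 and CAF4, at 1 in each of the other carcinoma lines, at 0 between the normal lines and 1 among the 7 lines, and the HpAF1 median at 0.69. All genes called moved from 300 to 399 in AdAF1, 535 to 649 in CAF1, 449 to 545 in CAF2, 337 to 408 in CAF3 and 110 to 127 in CAF4.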
